A study of Mus musculus with 12 samples.

Results

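The Inhba locus was examined as a window of 300 kb on mouse chromosome 13, from 15950000 to 16250000 of the mm9 build, drawn around Inhba, and its members were all ATAC-seq peaks that touch the window. The window was selected on these same peak lists, for its many regions called at 6 h and not at 0 h. Its near lack of regions open in every library was also part of the selection. ATAC-seq marks accessible chromatin by where the enzyme Tn5 can reach DNA and add adapters, and a peak is a stretch with many such cuts. The 118 peaks of the window, of 886143 in all, were chained where they overlapped by at least 1 bp into 27 regions, of 115231 in the genome, which are called R1 to R27 here in order along the chromosome. The cells were macrophages grown from bone marrow of female C57BL/6 mice, either with a knockout of the long noncoding RNA lincRNA-EPS (KO) or wild type (WT), cultured for 9 days in medium with 20% L929 supplement. LPS (lipopolysaccharide from the outer membrane of bacteria) was given at 100 ng/ml, with cells taken at 0, 2 and 6 h, and 50000 cells entered each transposition. The 6 groups of genotype and time hold 2 libraries each, and the labels do not say whether these came from separate animals or cultures. The spread within a group, and any p-value, may therefore cover technical error alone.

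Inhba encodes the beta A subunit of inhibins and activins. A pair of these subunits forms activin A, a secreted ligand of the TGF-beta family that binds activin receptors, acts through SMAD proteins and is held in check by follistatin. Macrophages are known to release activin A after stimulation with LPS. In the RefSeq gene order of GRCm38.p6, a later build than that of the peaks, the nearest protein-coding genes on either side are Gli3, a transcription factor of the Hedgehog pathway, and Sugct, an enzyme of mitochondrial metabolism, and the transcribed pseudogene B230303A05Rik overlaps Inhba. Gene positions in mm9 were not used here, so no region is called a promoter or an enhancer of Inhba.

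The 250 bases before the RefSeq start of Inhba are shown because they are the promoter of the gene that the window is drawn around. They come from chromosome 13, plus strand, of GRCm38.p6, and capitals mark the match found to a motif of C/EBP, a family of transcription factors.
Inhba promoter: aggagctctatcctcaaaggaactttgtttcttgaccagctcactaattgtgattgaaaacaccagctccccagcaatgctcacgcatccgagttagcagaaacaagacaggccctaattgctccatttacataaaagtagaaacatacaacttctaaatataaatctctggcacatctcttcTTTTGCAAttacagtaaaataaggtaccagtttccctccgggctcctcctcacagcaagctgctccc
The letters TTGCNNAA, searched on both strands, match once, with the first base 67 bases before the start, and 9.56% of the 32851 RefSeq promoters searched hold such a match in the same 250 bases. The letters searched for AP-1 (TGANTCA), PU.1 (GAGGAAGT), NF-kappaB (GGGANTTCC, and a form longer by 1 base) and the interferon-stimulated response element are not in this stretch. They are found in 6.75%, 2.44%, 1.43%, 0.283% and 2.98% of the promoters. A promoter can hold NF-kappaB matches of both lengths and then counts in both shares.

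The 12 lists held 54771 to 91610 peaks. Their background coverage, the lowest local background of a list in reads as recovered from the deposited values, was 1.43 to 3.35. KO 0 h replicate 2 was the shallowest library by both measures and KO 6 h replicate 1 the deepest. In a library of low depth, an open region can go uncalled. The peak names inside the lists of the 4 libraries labelled 2 h give 1 h, so the time called 2 h here may be 1 h.

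At rest the window was nearly empty of called peaks, and with 6 h of LPS it held many. The number of regions called at 0 h was 3 and 2 in KO and 4 and 3 in WT libraries. At 2 h it was 6 and 9 in KO and 7 and 7 in WT. At 6 h it was 18 and 17 in KO and 19 and 22 in WT, so the libraries of the 3 times did not overlap, as the plot of called regions by library shows. The bases under peaks averaged 1615 ± 294 at 0 h, 2941 ± 476 at 2 h and 8742 ± 579 at 6 h (SD, n = 4 libraries each). The lists themselves were longer at later times, with means of 63572.5 ± 5911 peaks at 0 h, 73639.75 ± 2825 at 2 h and 84323.5 ± 5517 at 6 h. Their lengths did not overlap between times either, at 54771 to 67128, 70387 to 77100 and 78766 to 91610 peaks. The share of a library's peaks that lay in the window was 0.0196% to 0.0258% at 6 h, against 0.00365% to 0.00596% at 0 h. These values belong to the contrast that chose the window, so they describe it and were not tested.

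**Figure D1:**
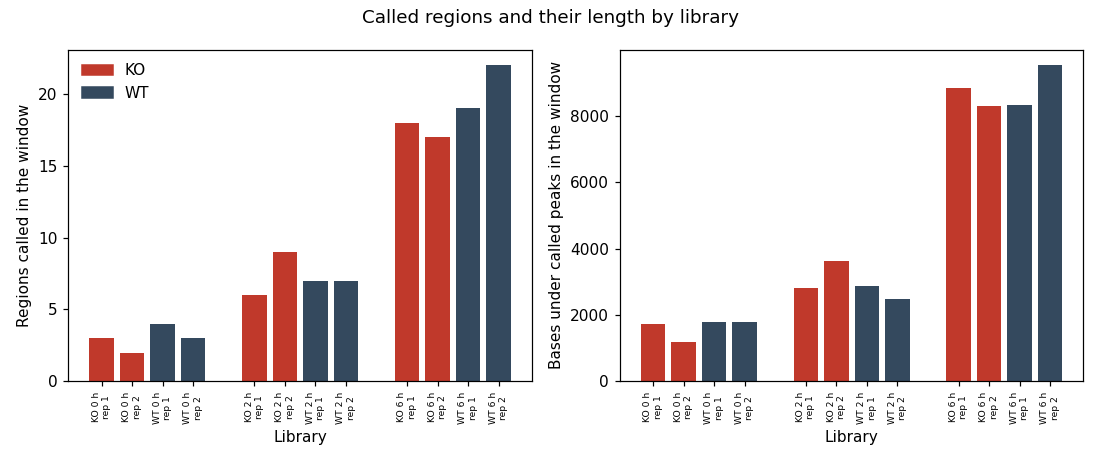
Regions called in the window (left panel, count) and bases under called peaks in it (right panel, bp) for each library. KO is in red and WT in dark blue, at 0, 2 and 6 h. Libraries at 6 h call 17 to 22 regions and libraries at 0 h 2 to 4.

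Of the 27 regions, 11 were gained by 6 h, meaning that all 4 libraries at 6 h called them and none of the 4 at 0 h did. Over the genome this rule took 5.54% of all regions. With each list cut to as many of its strongest peaks as the shortest list holds, 4 regions of the window met it. They were R11, R14 and R16 of the 11, and R19, which is not among the 11. The share over the genome was then 3.33% (2706 regions). Only 2 regions, R5 and R20, were called in all 12 libraries, a class that made up 37.2% of the genome's regions. The selection of the window used this low count as well as the gains, so both only describe it. No region of the window was lost by 6 h, against 0.127% of all regions, and none by 2 h, against 0.00434%. None was gained in all 4 libraries at 2 h, against 0.789%. The other 14 regions were called in some libraries without meeting a rule. In the heat map of calls, the columns of 6 h stand apart from those of 0 h and 2 h.

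**Figure D2:**
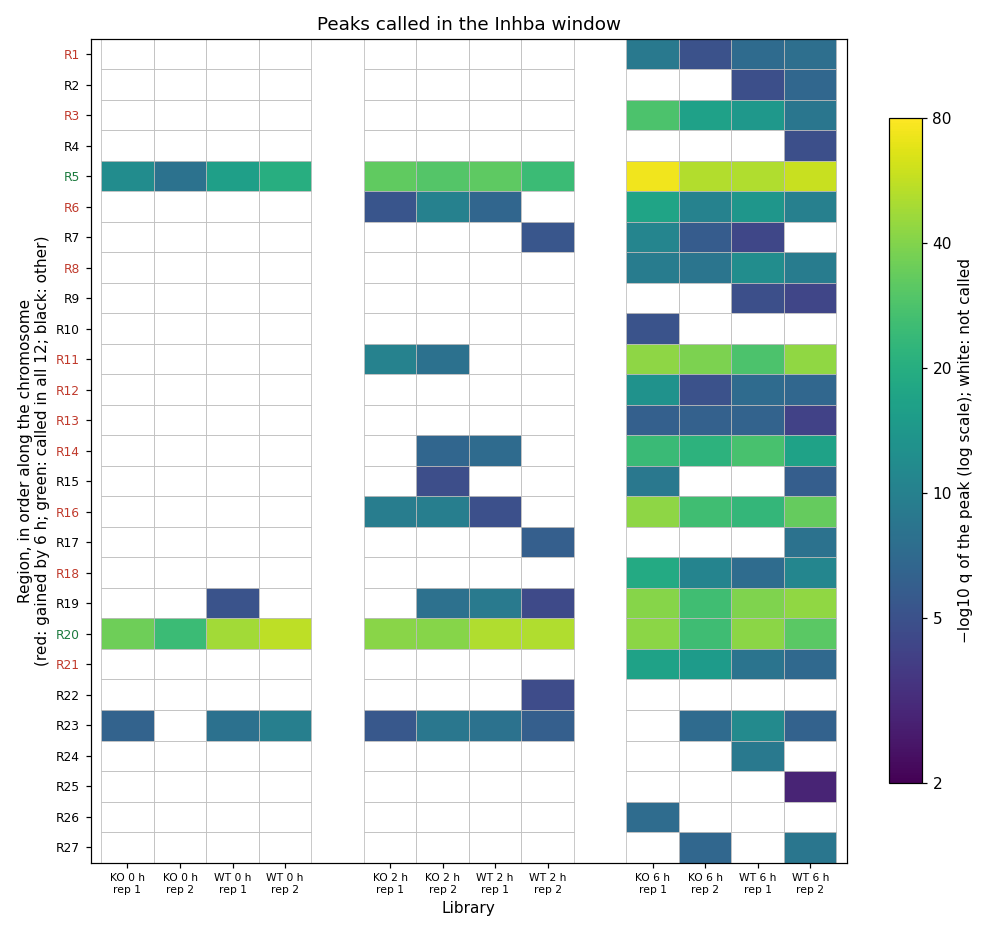
Each cell is 1 region (rows, in order along the chromosome) in 1 library (columns, KO before WT within each time), coloured by the −log10 q of its peak on a log scale, and white where no peak was called. The 11 regions with red names are filled in all 4 columns of 6 h and empty in all 4 of 0 h, and the 2 with green names are filled throughout.

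The regions formed groups along the window. R1 to R12 lay between 15956484 and 16028361, and R13 to R26 between 16078057 and 16125015. R27, at 16183656 to 16184029, stood alone and was called in 1 KO and 1 WT library at 6 h. The 11 gained regions were spaced by 1.31 to 50.1 kb from summit to summit, and the widest gap, between R12 and R13, held no called region of any library. In the map of regions, 9 of the 11 lie on the lower-coordinate side at more than 10 kb from R20, and R21 is the single gained region on the other side, at 1.91 kb. R18 lies at −5.36 kb, the minus sign marking the lower-coordinate side.

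**Figure D3:**
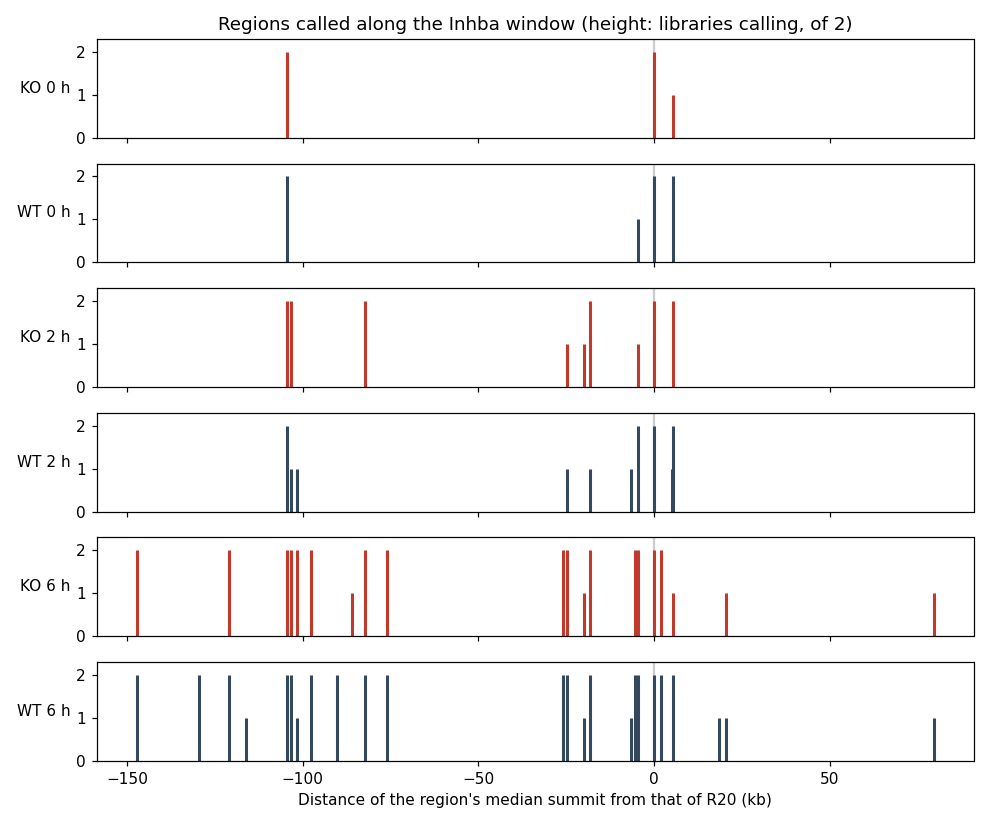
Position of each called region as the distance in kb of its median summit from that of R20, 1 panel per genotype and time, with the height giving how many of the 2 libraries called it. Regions are sparse at 0 h and fill the stretch from −147 to 20.6 kb at 6 h in both genotypes, with a single region beyond it at 79.6 kb.

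R20, at 16103571 to 16104551, was the strongest region before LPS. Its −log10 q at 0 h was 35.6 and 24.7 in KO and 47.7 and 55.2 in WT libraries, which placed it at the 71.4 to 89.6 percentile of the libraries' own lists. At 2 h these values were 41.5 and 40.7 in KO and 51.2 and 51.2 in WT. At 6 h they were 41.9 and 25.5 in KO and 41.9 and 31.3 in WT. The times overlapped, and the percentile at 6 h was 69.9 to 83.6.

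The deposited fold of R20, the summit coverage over the local background with 1 added to each, was lower after LPS. It was 9.02 and 7.81 in KO and 9.72 and 10.5 in WT at 0 h, 7.43 and 7.84 in KO and 8.32 and 9.11 in WT at 2 h, and 5.69 and 5.31 in KO and 6.29 and 5.70 in WT at 6 h. All 4 libraries at 6 h lay below all 4 at 0 h, as did 12.6% of the regions called in all 12 libraries. Summit coverage in multiples of the library's background coverage was 32.8 ± 2.57 at 6 h, against 32.1 ± 1.0 at 0 h (SD, n = 4), and the libraries of both times overlapped. Summit coverage in all 4 libraries at 6 h lay below all 4 at 0 h in 10.6% of those regions and in neither region of the window. The local background in the same multiples was 5.38 ± 0.25 at 6 h and 3.04 ± 0.24 at 0 h, with all 4 libraries at 6 h higher, as in 19% of the regions called in all 12, while 9.12% had all 4 lower. The fold of R20 was thus lower at 6 h over a higher local background. At R19, R18 and R21, within 6 kb of R20, the local background at 6 h had means of 5.28 ± 0.33, 3.91 ± 0.26 and 4.59 ± 0.25 multiples (SD, n = 4). R23, also within 6 kb, had a lower one, at 2.54 ± 0.34 multiples in the 3 libraries of 6 h that called it.

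R5, at 15999392 to 16000074 and at −104 kb from R20, was open in every library and much stronger with LPS. Its −log10 q was 11.8 and 8.08 in KO and 15.9 and 20.1 in WT libraries at 0 h. At 2 h it was 32.3 and 29.7 in KO and 31.9 and 24.8 in WT. At 6 h it was 73.8 and 52.5 in KO and 51.7 and 58.5 in WT, and the libraries of the 3 times did not overlap. The share of regions that separate so in −log10 q was not counted. Mean background coverage of the libraries also differed, at 2.01 at 0 h, 2.80 at 2 h and 2.59 at 6 h. Summit coverage was 11.3 ± 1.30 multiples of the library's background at 0 h, 16.3 ± 0.92 at 2 h and 35.7 ± 4.36 at 6 h (SD, n = 4). The mean at 6 h was 3.15 times that at 0 h, a ratio at or above that of 99.8% of the 42811 regions called in all 12 libraries, whose median was 0.953. All 4 libraries at 6 h exceeded all 4 at 0 h, as at 9.61% of those regions. The fold was 10.2 ± 0.23 at 6 h, against 7.25 ± 1.14 at 0 h, a ratio of 1.401, and all 4 libraries at 6 h exceeded all 4 at 0 h, as at 7.6% of those regions. The local background of R5 was higher as well, at 3.14 ± 0.31 multiples at 6 h, against 1.13 ± 0.26 at 0 h. Its percentile within the lists was 89.4 to 94.4 at 6 h, and 25.8 to 57.1 at 0 h in lists that were shorter.

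**Figure D4:**
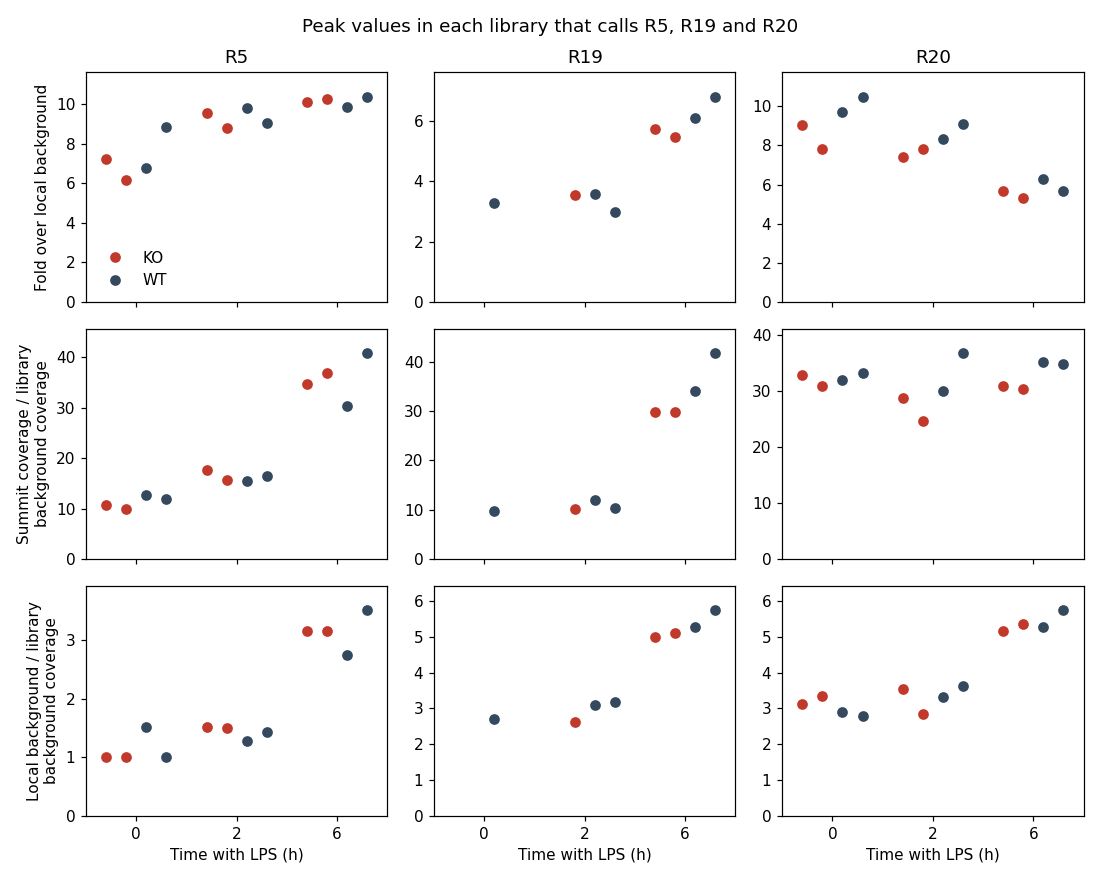
Fold over local background (top), summit coverage (middle) and local background (bottom), both of these in multiples of the library's background coverage, for R5, R19 and R20 in each library that calls them at 0, 2 and 6 h, with KO in red and WT in dark blue. R5 and R19 are higher at 6 h in the top row and R20 is lower, while the local background is higher at 6 h for all 3.

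The strongest of the gained regions was R11, at 16021340 to 16022261. Its fold at 6 h was 10.3 and 12.03 in KO and 9.04 and 12.1 in WT libraries, and its −log10 q was 42.5 and 38.5 in KO and 28.1 and 43.3 in WT. The genotypes overlapped. It stood at a mean percentile of 79.7 within the 6 h lists, at or above 98.03% of the 6389 regions gained by 6 h in the genome. R16, at 16085399 to 16086256, had a −log10 q at 6 h of 42.6 and 25.8 in KO and 23.1 and 33.5 in WT, with a fold of 7.10 to 9.18. R14, at 16079256 to 16079917, had a −log10 q of 24.5 and 21.3 in KO and 27.4 and 16.7 in WT, with a fold of 5.88 to 6.997. Their mean percentiles, 72.9 and 62.3, were at or above those of 95.5% and 88.0% of all gained regions.

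R3, at 15982661 to 15983649, was the widest region of the window, at 989 bp. Its −log10 q at 6 h was 28.0 and 16.2 in KO and 14.3 and 8.57 in WT, and the stronger of the 2 peaks that WT replicate 1 placed there is given. Both KO libraries exceeded both WT libraries, a difference that was not tested. How many of the genome's regions separate in this way was not counted. R6, at 16000465 to 16000946, lay about 1 kb from R5, and its −log10 q at 6 h was 17.3 and 10.2 in KO and 13.9 and 9.89 in WT. R21, at 16105995 to 16106302, had 16.8 and 15.0 in KO and 8.23 and 6.92 in WT. Both KO libraries were again above both WT libraries, with neither a test nor a count over the genome. The reverse order in −log10 q, both WT libraries above both KO libraries, held for R20 at 0 h and 2 h and for R5 at 0 h. No direction of genotype is read from these orders. R18, at 16098649 to 16099200, had 18.7 and 10.5 in KO and 7.25 and 10.9 in WT, and the genotypes overlapped.

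By mean −log10 q at 6 h, the remaining 4 gained regions ranked last of the 11. By mean fold R13 was again the lowest, at 3.51, and the others of the 4 were not last. They had 5.24 for R8, 5.14 for R12 and 4.93 for R1, against 4.43 for R6, 3.87 for R18 and 3.63 for R21. R8, at 16006142 to 16006822, had a −log10 q of 9.29 and 8.43 in KO and 11.98 and 9.28 in WT at 6 h. R12, at 16027901 to 16028361, had 13.1 and 5.10 in KO and 7.17 and 6.76 in WT. R13, at 16078057 to 16078455, had 6.07 and 6.20 in KO and 6.36 and 4.15 in WT, and its mean percentile of 10.4 was at or above that of 1.503% of all gained regions. R1, at 15956484 to 15957177, had 8.87 and 5.10 in KO and 7.17 and 7.62 in WT. The peak of WT replicate 2 in R1 ended at 15956690 and overlapped that of KO replicate 2 alone, and the summits of R1 spread over 495 bp, the most of any region in the window. For the 11 gained regions the median width was 662 bp and the median spread of summits 158 bp, against 486 and 123 bp over all regions gained by 6 h. Their median mean percentile at 6 h was 37.3, against 35.5 over all gained regions, and the plot of percentiles shows how far they range.

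**Figure D5:**
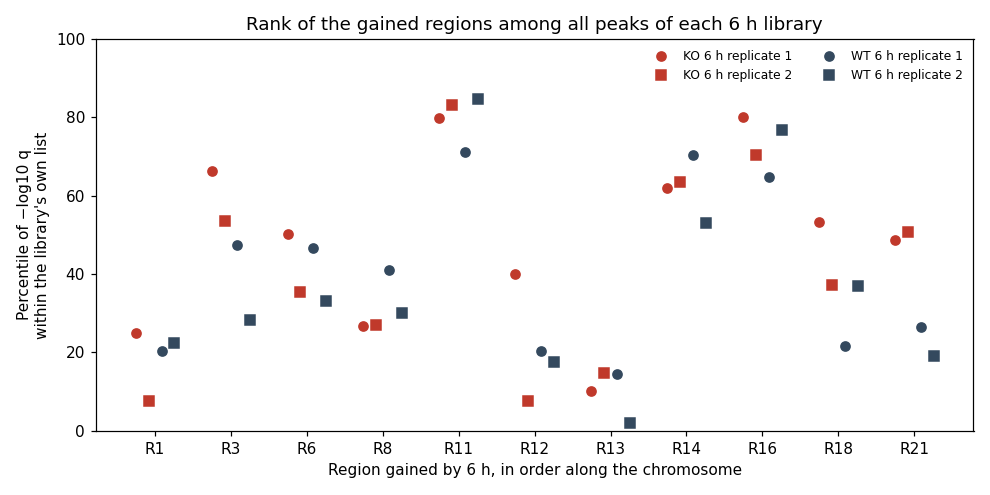
Percentile of −log10 q within its own list (0 to 100) for each of the 11 gained regions in the 4 libraries at 6 h, with KO in red and WT in dark blue, circles for replicate 1 and squares for replicate 2. R11 lies at 71.3 to 84.6 and R13 at 2.12 to 14.8.

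At 2 h part of the gain was present. Among the 11 gained regions, 7 had no call in any library of 2 h and 4 had calls in some of the libraries, against 52.4% and 39.1% of all gained regions. None was called in all 4, against 8.45%. The 4 were R6 and R16, called in 3 libraries, and R11 and R14, called in 2. Their −log10 q at 2 h was 4.90 to 10.2, below every value of the same region at 6 h except for R6, whose 9.96 in KO 2 h replicate 2 exceeded the 9.89 of WT 6 h replicate 2. Their fold at 2 h was 3.80 to 5.80, and that of R6 overlapped between the times, at 4.05 to 4.83 at 6 h and 3.80 to 4.98 at 2 h. R11 was called by both KO and neither WT library at 2 h, with a −log10 q of 10.2 and 7.88. Such KO-only regions at 2 h were 1.22% of the genome's regions, and R11 was the single one in the window. No region was called in both WT and neither KO library at 2 h, against 1.34%. WT 2 h replicate 2 called none of the 4, and its background coverage of 2.32 was the lowest at 2 h, against 2.79 to 3.04 in the other libraries of that time. Without that library, 2 regions of the window, R6 and R16, had calls in the other 3 libraries of 2 h and none at 0 h, against 1.29% of all regions under the same omission.

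R19, at 16099484 to 16099987, missed the rule for gained regions by 1 library. WT 0 h replicate 1 called it with a −log10 q of 5.14, at the 5.47 percentile of its list. At 2 h KO replicate 2 and both WT libraries called it, with values of 7.80 in KO and 9.03 and 4.58 in WT. At 6 h its −log10 q was 40.9 and 25.9 in KO and 39.5 and 43.5 in WT. All were higher than in any library that called it at an earlier time, a pattern not counted over the genome. Regions with 4 calling libraries at 6 h and 1 at 0 h made up 2.92% of the genome's regions, and R19 was the single one in the window. R7, at 16002414 to 16002766, missed the rule on the other side, with calls in 3 of 4 libraries of 6 h and no call at 0 h, with a −log10 q of 10.8 and 5.73 in KO and 4.38 in WT. Such regions were 3.81% of all.

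R23, at 16109456 to 16109949, was open at all times at a low level. It was called in 10 libraries, all but KO 0 h replicate 2 and KO 6 h replicate 1, the shallowest and the deepest library, with a fold of 3.52 to 5.19, and its values at the 3 times overlapped. Among the 11 regions not yet described in detail, R27 is given above, and R2 and R9 were called in both WT and neither KO library at 6 h, a pattern of 1.2% of all regions. Their −log10 q was 4.85 and 6.76 for R2, at 15974450 to 15974784, and 4.85 and 4.34 for R9, at 16013730 to 16014048, which placed R2 at the 6.14 and 17.6 and R9 at the 6.14 and 3.35 percentile of the lists. The reverse, both KO and neither WT library, was met by none at 6 h, against 1.91%. At 0 h neither pattern was met, against 0.505% of all regions for KO alone and 2.45% for WT alone. R15 was called in 3 libraries and R17 in 2. The 6 regions called in 1 library, 22.2% of the window's regions and 15.6% of the genome's, were R4, R10, R22, R24, R25 and R26. Of these, 5 were called at 6 h and 1 at 2 h, at the 0.129 to 29.0 percentile of their lists.

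The comparison of KO with WT asks whether loss of lincRNA-EPS, which the study's title names as a brake on inflammatory transcription, altered the locus. The rule that chose the window bears on this test, since 4 calls at 6 h and 0 at 0 h mean equal calls in KO and WT at both times. For the 11 gained regions the genotypes could therefore differ at 2 h alone, and the test says little about them. Nor could it give a p below 0.05 at any of the window's 25 regions called in 1 to 11 libraries. The numbers of calls that these regions have at each time leave too few arrangements. That no difference was detected in the window was thus fixed in advance and says nothing of genotype. In an exact two-sided permutation test of the number of calling libraries, with genotype exchanged within each time, the lowest p in the window was 0.333 and its Benjamini-Hochberg adjusted p was 1. Over the 72420 regions of the genome called in 1 to 11 libraries, 0% passed at an adjusted p of 0.05 and 74, or 0.102%, had an unadjusted p below 0.05, 0 of them in the window. The smallest p that this test can give at any region of the genome is 0.00926. It was reached by 12 regions, too few for any to pass the adjustment. With genotype exchanged within time and replicate number (the replicate block), 0.0166% had an unadjusted p below 0.05, again 0 in the window. This form could not give such a p at any region of the window either. A p of 0.333 does not show that the genotypes are alike.

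Counted in each genotype alone, the 11 gained regions meet the rule by definition, so the likeness of the next counts comes from the selection and is only described. In KO, 13 regions of the window had 2 calling libraries at 6 h and 0 at 0 h, against 12.5% of the genome's regions. In WT, 13 met the same rule, against 9.89%. The 2 beyond the shared 11 were R7 and R19 in KO and R2 and R9 in WT. For 2 h the counts were 3 in KO (R6, R11 and R16), against 5.01% of all regions, and 0 in WT, against 2.97%. The difference between these counts was not tested.

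Among 6560 tiles of 300 kb that hold a region, 2 had at least as many regions gained by 6 h as the 11 of this window, itself included, or 0.0305% of tiles, and the median was 1. The window was selected for its many gained regions, so nothing is read from this count. The selection itself stated a lower count of gained regions than the 11 found here. The 3 tiles whose numbers of called regions in the 12 libraries were closest to those of the window had a mean absolute difference of 1.83, 2.17 and 2.33 regions per library. They lay on chromosome 10 from 96650000, on chromosome 6 from 49250000 and on chromosome 5 from 67850000. The first held 24 regions, of which 8 were gained by 6 h and 5 called in all 12 libraries, and the others held 5 and 6 gained regions.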

How the data were processed

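Each library came with its own peak list, deposited by the authors. The submitters' processing notes name mm9, Bowtie2 2.1.0, MACS2 and Picard, while the sources used here do not give the peak caller settings or the handling of duplicates and of the Tn5 offset. An uncorrected offset moves borders by a few bases, and kept duplicates would raise peak values. The deposited lists give for each peak a fold ratio of summit to local background coverage, q-values and p-values as −log10, a score of 10 times the −log10 q, and the summit offset. These are the authors' own values, called on each library alone.

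Coverage was recovered as the whole number whose Poisson probability came within 0.001 (log10) of the authors' p, which succeeded for 100% of peaks. Read totals were not used here. Values in multiples of background coverage describe each library and were not tested.

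Regions were formed over the whole genome, and a region with several peaks of a library took the strongest. Every region of the window is reported. Those gained by 6 h, near that rule or called in all 12 libraries have their values given. The members and lists were chosen with earlier results of these data known. Same-numbered replicates did not deviate together in their calls (r of −0.0035, −0.012 and −0.0093 at 0, 2 and 6 h over 115231 regions). This does not show whether they shared animals, a culture or a batch. The rule for gained regions, the genotype test within time and the recovery were tested on simulated data. Chaining was checked against a second method on part of the peaks of chromosome 13. The rule for lost regions, the replicate block and the thinning were not tested in this way. Python 3.11.15, numpy 2.4.6, pandas 2.3.3 and scipy 1.17.1 were used. Motif counts over the regions and the positions of other activin pathway genes needed an mm9 sequence or annotation and were not analysed here, and the cell type and the knockout were for the same reason not checked against marker genes.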

Additional observations from a re-analysis of the deposited data

How the results depend on the processing

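Regions of the window that met the rule for gained by 6 h, 11 above, numbered 10 with only peaks of −log10 q of at least 5. They numbered 11 with either other chaining. With lists thinned to the shallowest library's background coverage they numbered 10, and 10 with a stricter thinning limit chosen after seeing the data. When each list was cut to its top 54771 peaks, 4 regions met the rule, and over the genome 2706 in place of 6389. These 4 were R11, R14 and R16 of the 11, and R19, which is not among the 11. That setting keeps 12 regions in the window and removes the weakest peaks of the longer lists, and those of 6 h are the longest. Without 1 library in turn the regions gained by 6 h numbered 11 to 12. Regions gained by 2 h numbered 0 to 2, and the 2, R6 and R16, appear without WT 2 h replicate 2. Regions called in all libraries stayed at 2 and lost regions at 0 under all these settings. In thinned lists R19 also met the rule for gained regions, its 0 h call being absent, and R12 and R13 were called in 3 of 4 libraries at 6 h. The genotype test called 0 regions of the genome under all alternatives, the replicate block included (12 at an unadjusted p below 0.05, smallest possible p 0.0313), while 70 to 193 had an unadjusted p below 0.05 without the block. A call carries no counting interval, and a peak of 13 reads, as R12 in KO 6 h replicate 2, lies at the 7.503 percentile of its list.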

Other observations

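Just outside the lower border of the window, 3 regions lay within 10 kb of it, at 15939751 to 15940315, 15942102 to 15942883 and 15944845 to 15945500. The first 2 were called in all 12 libraries and the last in 11, all but 1 KO library at 0 h. Past the upper border the nearest region began at 16296020, 46.0 kb away, and was called in 1 KO and 1 WT library at 6 h and in no other. The next, at 16300579 to 16301002, was called in 2 KO and 1 WT libraries, also at 6 h alone. The R19 and R20 peaks of WT 6 h replicate 2 had the same local background of 12.5 reads, as did those of WT 6 h replicate 1 at 14.1 reads.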
